A study of Mus with 12 samples.

Results

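The renin-angiotensin and endothelin genes are a set of 8 genes of 2 peptide systems that act on kidney vessels and tubules: Ren1, Agt, Ace and Agtr1a of the first, and Edn1, Ece1, Ednra and Ednrb of the second. They were taken by gene symbol from the annotation of the array's probe sets, not by any measured value. The list was chosen with earlier results of these data known. Of the 8 genes, 6 had a probe set (1 each) among the 19505 genes of the array that were tested. Ren1 and Ednra were not analysed here.

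Whole kidney RNA came from 12 male C57Bl/6j mice aged 6 months, with a separate Clariom S array for each mouse. The 4 groups of 3 arrays were wild type mice given saline (WT control), wild type mice given cisplatin at 15 mg/kg (WT AKI), Apobec1 knockout mice given saline (KO control) and Apobec1 knockout mice given the same dose of cisplatin (KO AKI). Cisplatin is a platinum drug that injures tubule cells. AKI stands for acute kidney injury, which the labels call severe in the KO AKI mice. Kidneys were taken after 3 days. Apobec1 encodes a cytidine deaminase that edits RNA, and its disruption was carried in every cell of the KO mice, not in the kidney alone. The study's methods give a purchase of wild type C57Bl/6j mice under another cisplatin model, and KO mice backcrossed to that background. They do not say whether the wild type mice of these arrays were purchased. A difference of source between the genotypes could not be told apart from genotype. No litter is given for any mouse. The Apobec1 probe set had log2 signals of 6.63 to 7.33 in WT control and 7.50 to 7.66 in KO control kidneys, and of 8.38 to 8.97 in WT AKI and 7.33 to 9.75 in KO AKI kidneys. The KO control arrays were above the WT control arrays and the AKI groups overlapped, so this probe set gives no check of the genotype, which was taken from the labels. Per its methods, the study checked the disruption by genotyping and by the mRNA.

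Renin, which is made by cells of the afferent arteriole, cuts angiotensinogen (Agt) to angiotensin I. Angiotensin converting enzyme (Ace) then makes angiotensin II, which constricts vessels and promotes sodium reabsorption through the type 1 receptor. In mice that receptor is encoded by Agtr1a and Agtr1b. Proximal tubule cells themselves make angiotensinogen and carry Ace and type 1 receptors on their surface. Endothelin-1 (Edn1) is made as a longer precursor that endothelin converting enzyme (Ece1) cuts to the active peptide. It constricts vessels through the type A receptor (Ednra), while the type B receptor (Ednrb) on endothelium releases nitric oxide and clears the peptide, and in the collecting duct inhibits sodium reabsorption.

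Values are deposited log2 signals, for which a step of 1 is a doubling, and they were compared between arrays for the same probe set only. Background was set on each array by 23 antigenomic control probe sets, whose sequences are absent from the mouse transcriptome, as their 95th percentile, and lay between 6.15 and 6.52 on the arrays. Between 44.3% and 47.0% of the genes were above it on an array. All 11 measured proximal tubule markers were above background on every array except KO AKI replicate 2, where 10 were, and none of 4 adrenal cortex markers was above background on any array. KO AKI replicate 2 stood apart from the other 2 KO AKI arrays. Its mean signal over the 11 proximal tubule markers was 9.84, against 14.53 and 13.64 for replicates 1 and 3, and its 5 neutrophil markers averaged 7.0, against 4.76 and 5.03. Over all genes the median difference of this array from the mean of the other 2 was 0.02. For the 6 genes, counts at an unadjusted p, counts of groups not overlapping and the correlations are given with this array only. Their fitted differences that rest on it, and the medians over the 6 genes, are given with and without it. For related genes this was done where that array moved a fold by over 1.5 times.

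In saline-treated kidneys none of the 6 measured genes was called different between the genotypes. Agt, Ace, Agtr1a and Ednrb were above background on all 12 arrays. Edn1 stayed under background in all 6 control kidneys, and Ece1 was above it on 2 of 3 WT control and 3 of 3 KO control arrays. Between KO control and WT control, 0 of the 6 genes passed an adjusted p under 0.05 in limma, with 0 of 6 at an unadjusted p under 0.05, where 0.0513% of all genes were called and 6.17% had an unadjusted p under 0.05. The log2 differences, KO control minus WT control, ran from -0.12 for Ace to 0.26 for Agtr1a. Their 95% intervals were still wide, from -0.62 to 0.47 for Agt and, for Agtr1a, from -0.54 to 1.07. The arrays of the 2 genotypes overlapped for all 6 genes, and did not for 14.6% of all genes.

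Cisplatin was followed by higher Agt signal in both genotypes and by lower Ace and Agtr1a signal, which passed the test in the KO kidneys. In WT kidneys 2 of the 6 genes were upregulated (Agt and Edn1) and 0 were downregulated at an adjusted p under 0.05 in limma, where 14.0% of all genes were called (8.63% up and 5.34% down). In KO kidneys 2 were upregulated (Agt and Edn1) and 3 were downregulated (Ace, Agtr1a and Ece1), where 27.9% of all genes were called (15.4% up and 12.6% down). At an unadjusted p under 0.05 there were 3 of 6 in WT and 5 of 6 in KO kidneys, where 29.8% and 39.6% of all genes had such a p. Control and AKI arrays did not overlap for 4 of 6 genes in WT and 5 of 6 in KO kidneys, which was so for 39.7% and 41.4% of all genes, so these shares are set against a background in which many genes moved. The median log2 difference over the 6 genes was -0.42 in WT kidneys and -0.02 in KO kidneys, beside 0.06 over all genes in each. Without KO AKI replicate 2 the KO count remained 2 up and 3 down, and the KO median was -0.32, beside 0.05 over all genes. The WT count became 2 up and 2 down without that array, since all 12 arrays share 1 estimate of the spread. Over all genes 4040 of 19505 were then called in WT and 4460 in KO kidneys, against 2726 and 5445 with all arrays.

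**Figure D1:**
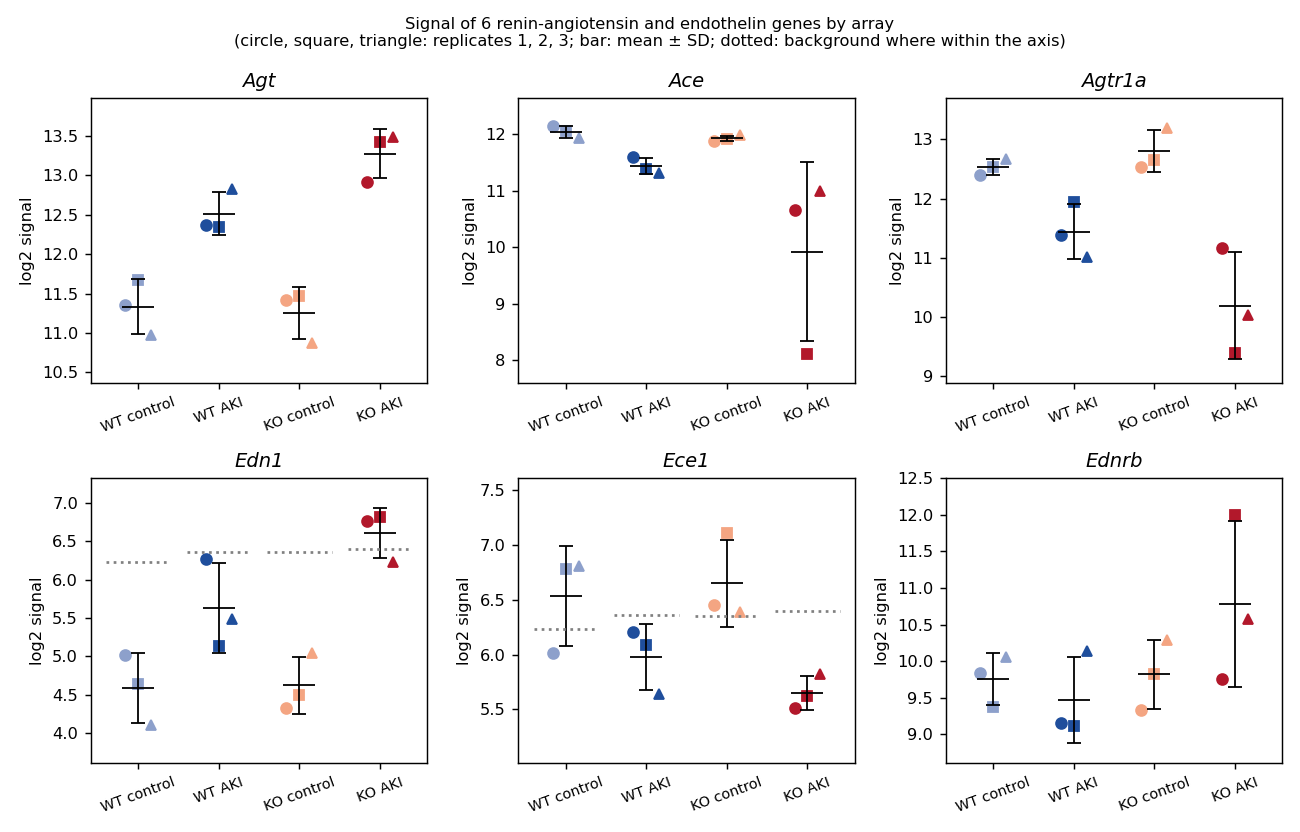
Log2 signal of Agt, Ace, Agtr1a, Edn1, Ece1 and Ednrb on each of the 12 arrays by group, with circles, squares and triangles for replicates 1, 2 and 3, bars for mean ± SD (n = 3) and dotted lines for background. Agt lay higher on all 6 AKI arrays than on all 6 control arrays, and KO AKI replicate 2 had the lowest Ace and Agtr1a and the highest Ednrb signal of the 12 arrays.

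Agt encodes the only substrate of renin. In WT control kidneys its log2 signal was 11.36, 11.67 and 10.97, and in WT AKI kidneys 12.37, 12.34 and 12.83. In KO control kidneys it was 11.42, 11.47 and 10.87, and in KO AKI kidneys 12.92, 13.42 and 13.48. Every AKI array was above every control array of either genotype, and each KO AKI array was above each WT AKI array. In WT kidneys Agt was upregulated 2.27-fold, a log2 difference of 1.18 (SE 0.25, 95% interval 0.64 to 1.73, adjusted p = 0.00832 from limma). In KO kidneys it was upregulated 4.06-fold, a log2 difference of 2.02 (SE 0.25, adjusted p = 9.90e-05 from limma). Both calls held when each of the 12 arrays was left out in turn, and without KO AKI replicate 2 the KO difference was 1.95.

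Ace encodes the enzyme that converts angiotensin I to angiotensin II. WT control kidneys gave signals of 12.14, 12.06 and 11.93, and WT AKI kidneys 11.59, 11.38 and 11.32. The KO control arrays gave 11.88, 11.91 and 11.98, and the KO AKI arrays 10.66, 8.10 and 11. All 6 AKI arrays lay below all 6 control arrays, and KO AKI replicate 2 lay far below the other 2 of its group. In KO kidneys Ace was downregulated 4.02-fold, a log2 difference of -2.01 (SE 0.52, adjusted p = 0.0121 from limma). When KO AKI replicate 2 was left out, the difference shrank to -1.10 and its SE to 0.20 (adjusted p = 0.00121 from limma), and with only the KO arrays in the fit the adjusted p was 0.0679. In WT kidneys the difference of Ace was -0.61 (SE 0.52, 95% interval -1.74 to 0.51, adjusted p = 0.463 from limma). The WT difference kept its size without KO AKI replicate 2, and the adjusted p was then 0.0257.

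Agtr1a encodes the main type 1 angiotensin II receptor of the mouse kidney. The WT control arrays gave 12.39, 12.54 and 12.67 and the WT AKI arrays 11.38, 11.94 and 11.01. The KO control arrays gave 12.54, 12.65 and 13.20 and the KO AKI arrays 11.16, 9.39 and 10.03. All 6 AKI arrays were below all 6 control arrays, and the WT AKI and KO AKI arrays overlapped. In KO kidneys Agtr1a was downregulated 6.07-fold, the largest change among the 6 genes, with a log2 difference of -2.60 (SE 0.37, adjusted p = 0.000283 from limma) and of -2.20 without KO AKI replicate 2 (adjusted p = 0.000285). In WT kidneys the difference was -1.09 (SE 0.37, 95% interval -1.90 to -0.29, adjusted p = 0.0679 from limma). The adjusted p of this WT difference was 0.0172 when KO AKI replicate 1 was left out and 0.0190 when replicate 2 was.

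Edn1 encodes the precursor of endothelin-1. Its signal was 5.02, 4.64 and 4.11 on the WT control arrays, 6.27, 5.13 and 5.48 on the WT AKI arrays, 4.33, 4.49 and 5.04 on the KO control arrays and 6.76, 6.82 and 6.23 on the KO AKI arrays. Only KO AKI replicates 1 and 2 were above background, and no AKI array overlapped with the controls. In KO kidneys Edn1 was upregulated by at least 0.25 on the log2 scale, the mean of the KO AKI arrays over the background of the KO control arrays. The fitted difference was 1.98 (SE 0.32, adjusted p = 0.000635 from limma), or 1.87 without KO AKI replicate 2, and the call held without each array in turn. In WT kidneys both groups were below background, so no fold is given. The fitted difference there was 1.04 (SE 0.32, adjusted p = 0.0457 from limma). That WT call for Edn1 was lost without WT AKI replicate 1 (adjusted p = 0.180) or replicate 3 (0.0837), without WT control replicate 2 (0.0971) or replicate 3 (0.167), and without KO control replicate 1 (0.0574) or replicate 2 (0.0594).

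Ece1, the converting enzyme, gave 6.01, 6.78 and 6.81 on the WT control arrays, 6.21, 6.09 and 5.64 on the WT AKI arrays, 6.45, 7.11 and 6.39 on the KO control arrays and 5.51, 5.62 and 5.82 on the KO AKI arrays. None of the 6 AKI arrays was above background. In KO kidneys the groups did not overlap, and Ece1 was downregulated by at least 0.26 on the log2 scale, with a fitted difference of -1.0 (SE 0.27, adjusted p = 0.0133 from limma). This KO call for Ece1 was lost without KO control replicate 2 (adjusted p = 0.0623). Without KO AKI replicate 2 the KO difference was -0.99 (0.0263). In WT kidneys the arrays overlapped and the fitted difference was -0.55 (SE 0.27, adjusted p = 0.181 from limma).

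Ednrb, the type B endothelin receptor, gave 9.84, 9.37 and 10.06 on the WT control arrays, 9.16, 9.11 and 10.14 on the WT AKI arrays, 9.34, 9.83 and 10.29 on the KO control arrays and 9.76, 12 and 10.58 on the KO AKI arrays. Apart from KO AKI replicate 2, the groups overlapped. The difference after cisplatin was -0.29 in WT kidneys (SE 0.47, 95% interval -1.29 to 0.72, adjusted p = 0.720 from limma) and 0.96 in KO kidneys (SE 0.47, 95% interval -0.04 to 1.97, adjusted p = 0.142 from limma). The KO difference of Ednrb depended on which array was left out: it was 0.35 without KO AKI replicate 2 (adjusted p = 0.527) and 1.47 without KO AKI replicate 1 (adjusted p = 0.0206).

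**Figure D2:**
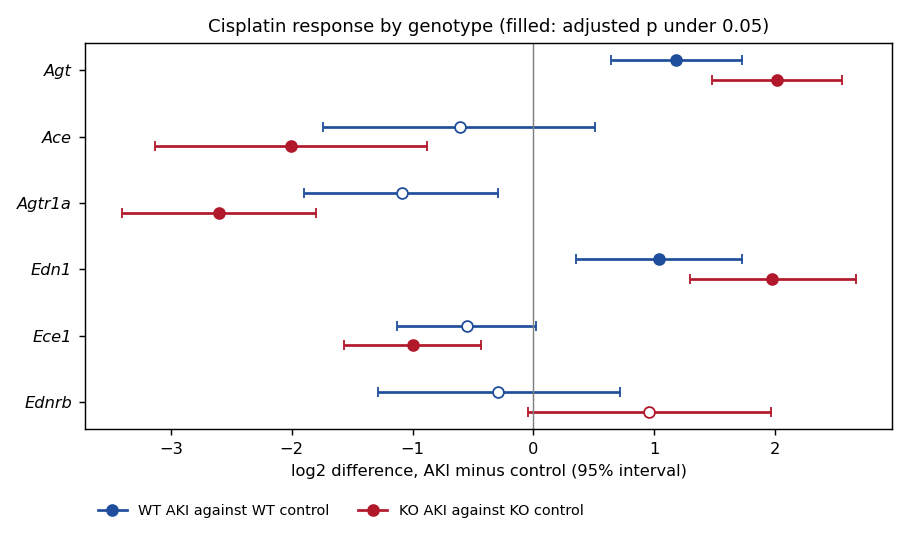
Log2 difference between AKI and control (x axis, bars: 95% interval) for the 6 genes in WT (blue) and KO (red) kidneys, with filled points where the adjusted p was under 0.05. Agt rose by 1.18 in WT and 2.02 in KO kidneys, and the intervals of Ednrb include 0 in both genotypes.

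The question of whether the Apobec1 knockout altered these genes after cisplatin was addressed by KO AKI against WT AKI and by the interaction of genotype and cisplatin, which share the AKI arrays and are not independent of each other. Between KO AKI and WT AKI, 0 of the 6 genes passed an adjusted p under 0.05 in limma, where 0.487% of all genes were called. At an unadjusted p under 0.05 there were 5 of 6, where 15.3% of all genes had such a p. The arrays of Agt and Ace did not overlap between the groups, which was so for 17.2% of all genes. The median log2 difference over the 6 genes was 0.22, or 0.19 without KO AKI replicate 2, beside -0.01 over all genes.

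Agt was 1.69-fold higher in KO AKI than in WT AKI kidneys, a log2 difference of 0.76 with a 95% interval of 0.22 to 1.30 (adjusted p = 0.167 from limma). Ednrb differed by 1.31 (interval 0.31 to 2.32, adjusted p = 0.191 from limma), and Edn1 by 0.98 (interval 0.29 to 1.66, adjusted p = 0.161 from limma), with a bound of at least 0.24 since no WT AKI array was above background. Ace differed by -1.51 (interval -2.64 to -0.39, adjusted p = 0.181 from limma) and Agtr1a by -1.25 (interval -2.05 to -0.44, adjusted p = 0.133 from limma). Ece1 was below background on all 6 of these arrays. None of these adjusted p-values passed the threshold, and the intervals of the 5 genes above hold both small and several-fold differences.

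Single KO AKI arrays set the size of several of these differences. Without KO AKI replicate 2 the difference of Ace between KO AKI and WT AKI was -0.60 (adjusted p = 0.208 from limma), that of Agtr1a -0.85 (0.302), that of Ednrb 0.71 (0.460) and that of Agt 0.69 (0.312). With the same array left out, Edn1 differed by 0.87 (0.305). Without KO AKI replicate 1 the difference of Agtr1a was -1.73 (adjusted p = 0.00597 from limma) and that of Ednrb 1.82 (0.0242), and both passed the threshold. That setting leaves 2 KO AKI arrays, 1 of which is the array that stood apart.

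**Figure D3:**
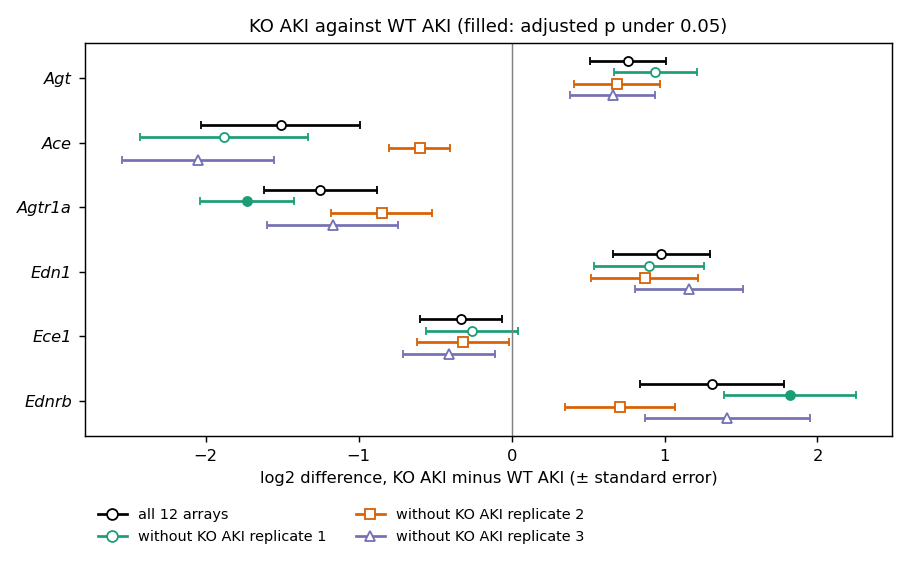
Log2 difference of KO AKI minus WT AKI (x axis, bars: ± standard error) for the 6 genes with all 12 arrays (black) and without KO AKI replicate 1 (green), 2 (orange) or 3 (purple), with filled points where the adjusted p was under 0.05. The difference of Ace was -1.51 with all arrays and -0.60 without replicate 2, while that of Agt moved little, from 0.76 to 0.69.

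For the cisplatin response itself, 0 of the 6 genes passed an adjusted p under 0.05 in limma for a difference between the genotypes, with 2 of 6 at an unadjusted p under 0.05. Over all genes 0.0308% were called for this interaction and 10.4% had an unadjusted p under 0.05. The response of Agt was 0.84 higher in KO kidneys on the log2 scale (95% interval 0.07 to 1.61, adjusted p = 0.447 from limma), and that of Agtr1a was 1.51 lower, a difference of -1.51 (interval -2.65 to -0.37, adjusted p = 0.365 from limma). When KO AKI replicate 1 was left out, the difference of Agtr1a was -1.99 (adjusted p = 0.0280 from limma). It was -1.11 without KO AKI replicate 2 (adjusted p = 0.407 from limma) and -1.43 without replicate 3 (0.390). The difference of Agt was 0.76 without KO AKI replicate 2 (0.508). For Ace the difference of the responses was -1.39 with all arrays (adjusted p = 0.543) but -0.48 when KO AKI replicate 2 was left out (0.578). For Ednrb it was 1.25 (0.539) and, with the same array left out, 0.64 (0.720).

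Markers of the cells that carry these genes moved too. In whole kidney RNA, fewer cells of a type and less RNA per cell cannot be told apart. The 11 proximal tubule markers averaged 15.83 to 15.93 on the WT control arrays, 15.06 to 15.37 on the WT AKI arrays and 15.91 to 16.09 on the KO control arrays, and 14.53, 9.84 and 13.64 on KO AKI replicates 1, 2 and 3. The log2 of their summed signal ran from 20.08 to 20.10, 19.29 to 19.67, 20.32 to 20.40 and 14.71 to 18.78 in the same groups. Of these markers 9 of 11 were downregulated in KO kidneys after cisplatin and 0 of 11 in WT kidneys, where 12.6% and 5.34% of all genes were called down. With KO AKI replicate 2 left out, it was 9 of 11 in KO and 2 of 11 in WT kidneys (Slc22a6 and Slc5a2). On KO AKI replicate 2 the marker Slc7a13, a transporter of the last proximal segment, was the only one not above background. Their part in the results for Agt, Ace and Agtr1a was not tested.

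On KO AKI replicate 2, Ace differed from the average of replicates 1 and 3 by -2.73 and Agtr1a by -1.21, beside a median of -3.77 over the proximal tubule markers and of -1.97 over 8 loop of Henle and distal tubule markers. Agt was 0.22 higher there, and Ednrb 1.82 higher. The Agt signal was 13.42 on this array, against 12.92 and 13.48 on replicates 1 and 3. Whether it is related to the tubule marker signal was not tested. The 11 markers of endothelium, a cell type known to express Edn1 and Ednrb, differed on that array by a median of -0.18, and the 11 vascular smooth muscle, pericyte and mesangial markers by 0.03.

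**Figure D4:**
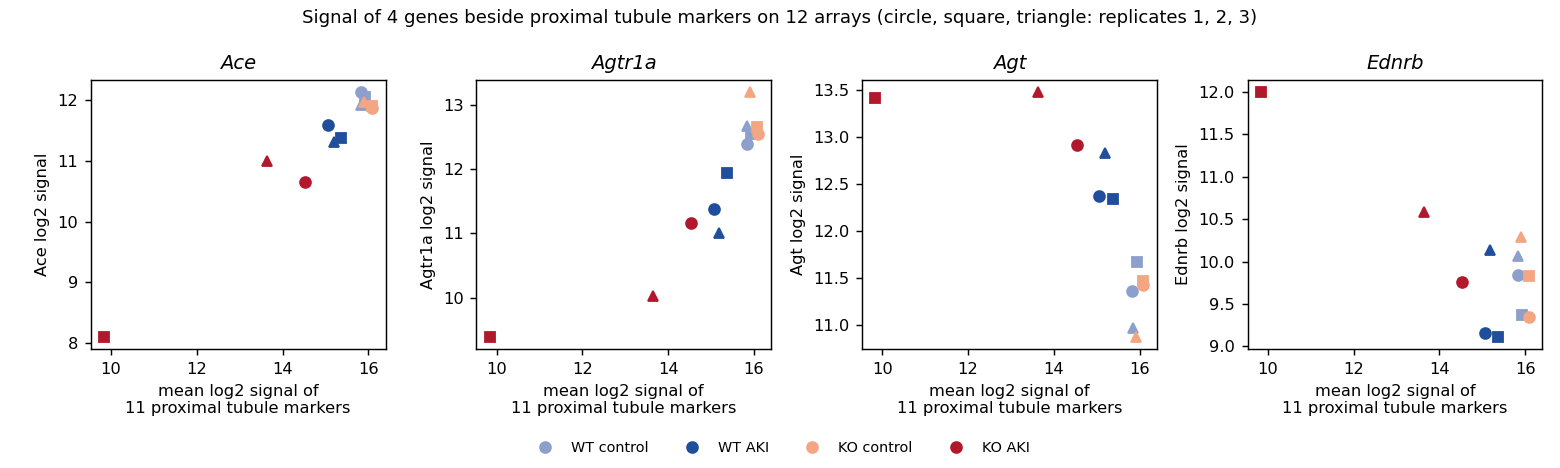
Log2 signal of Ace, Agtr1a, Agt and Ednrb (y axes) against the mean log2 signal of 11 proximal tubule markers (x axes), 1 point for each of the 12 arrays, coloured by group. Ace and Agtr1a were lowest on the array with the lowest marker mean (9.84), where Agt was at 13.42 and Ednrb at 12.

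The endothelial markers averaged 8.50 to 9.08 on the WT control, 8.59 to 8.76 on the WT AKI, 9.35 to 9.64 on the KO control and 8.63 to 8.95 on the KO AKI arrays, and the log2 of their summed signal ran from 12.90 to 13.76, 12.86 to 13.12, 14 to 14.39 and 12.84 to 13.68. After cisplatin 0 of 11 passed the test in WT kidneys and 5 of 11 (Ehd3, Emcn, Kdr, Plvap and Tek) were downregulated in KO kidneys. Over all genes 5.34% and 12.6% were called down. The median difference of these markers was 0.90 in KO control against WT control and 0.04 in KO AKI against WT AKI, with 0 called in either. With KO AKI replicate 2 left out, 4 of 11 were downregulated in KO kidneys (Emcn, Kdr, Pecam1 and Plvap), and in WT kidneys 2 were downregulated (Emcn and Kdr) and 1 upregulated (Flt1). Their part in the values of Edn1, Ece1 and Ednrb was not tested. The vascular smooth muscle, pericyte and mesangial markers, which mark cells that carry type 1 angiotensin receptors, averaged 6.46 to 7.17 over all 12 arrays, with 1 of 11 downregulated in each genotype (Smtn in WT and Itga8 in KO kidneys). Without KO AKI replicate 2, Tagln was also called up in each genotype.

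Of 19 other genes of the renin-angiotensin system listed, 17 were measured and 11 were above background on some array. In WT kidneys 3 were upregulated after cisplatin and 0 downregulated, and in KO kidneys 2 were upregulated and 2 downregulated (1 and 1 without KO AKI replicate 2, when the WT counts were 4 and 0). For these and the lists below, the shares called over all genes with all 12 arrays are again 14.0% in WT and 27.9% in KO kidneys. Without KO AKI replicate 2, 4040 of 19505 genes were called in WT and 4460 in KO kidneys. The median log2 difference was 0.10 in each genotype with all arrays, beside 0.06 over all genes, and 0.23 in KO kidneys without KO AKI replicate 2. Mme encodes neprilysin, a brush border peptidase that makes angiotensin 1-7 from angiotensin I, with KO control signals of 14.63, 14.06 and 14.28 and KO AKI signals of 13.06, 10.00 and 12.42. It was downregulated 5.65-fold in KO kidneys (log2 difference -2.50, SE 0.54, adjusted p = 0.00407 from limma), and its difference in WT kidneys was -0.59 (adjusted p = 0.499). Like Ace, it had its lowest signal on KO AKI replicate 2. The KO difference of Mme was -1.59 without that array (adjusted p = 0.000235) and -3.12 without KO AKI replicate 1 (0.000358).

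Thop1 and Nln encode peptidases that also cut angiotensin I. Thop1 was upregulated in WT kidneys by a log2 difference of 0.96 (SE 0.20, adjusted p = 0.00732 from limma), at least 0.57 over background, since no WT control array was above it. Its difference in KO kidneys was 0.29 (adjusted p = 0.307). Nln was upregulated in KO kidneys by 0.89 (SE 0.24, adjusted p = 0.0142 from limma), and this call was lost without KO AKI replicate 2 (0.0525) or KO control replicate 2 (0.0581). Agtrap, which encodes a protein that binds the type 1 receptor and promotes its uptake into the cell, was downregulated in KO kidneys (log2 difference -0.80, adjusted p = 0.0269), a call lost without each KO array except KO AKI replicate 1 (adjusted p 0.0508 to 0.0916). Cma1 (chymase) and Agtr1b, the second type 1 receptor gene, also passed the test, both below background on all arrays compared. Atp6ap2, the prorenin receptor, differed by -0.27 in WT (adjusted p = 0.495) and -0.49 in KO kidneys (adjusted p = 0.156), and Enpep, which turns angiotensin II into angiotensin III, by 0.44 (0.356) and -0.64 (0.133).

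Of the other endothelin genes (Edn2, Edn3, Ecel1 and Kel measured, Ece2 not analysed here), 0 of 4 passed the test in either genotype in limma, with 0 of 4 at an unadjusted p under 0.05. Edn3 alone was above background, on 2 of the 12 arrays.

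Renin itself was not analysed here, but 16 of 18 genes of renin cells and renin release were (Akr1b7 and Adrb1 were not). In WT kidneys 2 were upregulated and 1 downregulated, and in KO kidneys 4 and 3, or 3 and 1 in each genotype without KO AKI replicate 2. The median differences were 0.24 and 0.23. Casr, the calcium-sensing receptor of the thick ascending limb, had the largest change: 12.21, 12.49 and 12.38 in WT control kidneys against 9.46, 9.90 and 10.29 after cisplatin, and 12.26, 12.08 and 11.79 in KO control kidneys against 9.29, 6.99 and 8.77 after cisplatin. It was downregulated 5.55-fold in WT (adjusted p = 0.00301 from limma) and 12.9-fold in KO kidneys (adjusted p = 6.41e-05), and both calls held without each array in turn. Without KO AKI replicate 2 the KO log2 difference of Casr was -3.01, against -3.69 with it. Loop of Henle and distal tubule markers were called down for 5 of 8 genes in each genotype (Calb1, Egf, Kcnj1, Pvalb and Slc12a3). The list medians were -2.33 in WT and -3.75 in KO kidneys. Slc12a1, Umod and Cldn16 were not called in either genotype. From WT control to WT AKI their means went from 16.73 to 16.85, 18.55 to 18.52 and 8.05 to 8.83. From KO control to KO AKI they went from 16.99 to 14.86, 18.22 to 18.04 and 7.89 to 7.50. Whether Casr moved with markers of its own segment was not tested.

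Ptgs2 (cyclooxygenase 2), which makes prostaglandins that stimulate renin release, was called up in KO kidneys (adjusted p = 0.00622 from limma). Only KO AKI replicate 2, at 7.95, was above background, so no size is given. The call held without that array (0.00210). Ptger4, a receptor for prostaglandin E2, was called up in WT (adjusted p = 0.0417) and in KO kidneys (0.0185). It was above background on 1 WT AKI, 2 KO AKI and 0 control arrays, and its bound was 0.04 on the log2 scale in WT kidneys, with none to give in KO kidneys. The WT call for Ptger4 was lost without replicate 1 or 3 of WT AKI, WT control or KO control (adjusted p 0.0545 to 0.157), and the KO call without replicate 1 or 3 of KO AKI or KO control (0.0554 to 0.0720). Rbpj, a transcription factor of the Notch pathway that maintains renin cells, was upregulated by 0.73 in KO kidneys (adjusted p = 0.0136, or 0.0539 without KO control replicate 3), and its difference in WT kidneys was 0.29 (0.343). Ebf1, a transcription factor, was called down in KO kidneys (log2 difference -0.65, adjusted p = 0.0477), a call lost when any array but KO control replicate 2 was left out (0.0510 to 0.188). Prkg2, called up in WT kidneys, and Adcy5, called down in KO kidneys, were below background on all arrays compared.

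Downstream of aldosterone, the hormone that angiotensin II releases from the adrenal gland, 0 of 9 mineralocorticoid and sodium channel genes were upregulated in either genotype, 2 were downregulated in WT and 4 in KO kidneys. Without KO AKI replicate 2 it was 4 in each genotype. The medians were -0.60 and -0.11, and the KO median was 0.32 without that array. Nr3c2, the mineralocorticoid receptor, was downregulated 3.72-fold in WT (log2 difference -1.90, SE 0.24, adjusted p = 0.000358 from limma) and 2.93-fold in KO kidneys (log2 difference -1.55, adjusted p = 0.000516). Scnn1a, a subunit of the epithelial sodium channel, was downregulated 2.96-fold (adjusted p = 0.00485) and 2.29-fold (0.0105).

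Hsd11b2, which protects the mineralocorticoid receptor from glucocorticoids, was downregulated 3.91-fold in KO kidneys (adjusted p = 0.000751 from limma), and its difference in WT kidneys was -0.92 (0.0776, called without KO AKI replicate 2). Scnn1g, another channel subunit, was downregulated 3.43-fold in KO kidneys (log2 difference -1.78, adjusted p = 0.0115). Without KO AKI replicate 2, where it was not above background, the difference of Scnn1g was -1.02 (0.00507), and with only the KO arrays in the fit its adjusted p was 0.0621, while its WT difference was -1.37 (0.0619, also called without that array). Sgk1, a kinase induced by aldosterone, differed by -0.03 (0.968) and 0.53 (0.274). Collecting duct markers, where these channels act and of which Scnn1g is also 1, averaged 9.83 to 10.19, 8.99 to 9.44, 9.88 to 10.32 and 8.34 to 9.71 in the groups, taken in the same order as above. Their part in these values was not tested.

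The next list held 24 measured genes, mostly of kinins, natriuretic peptides and nitric oxide, systems that oppose angiotensin II and endothelin. It also held the vasopressin receptors Avpr1a and Avpr2, and Gucy1a1 was not analysed here. In WT kidneys 4 were upregulated and 3 downregulated, and in KO kidneys 7 and 4. Without KO AKI replicate 2 it was 5 and 3 in WT and 7 and 4 in KO kidneys, when Cpn1 replaced Ptgis among the KO rises. The medians were 0.27 and -0.28. Klk1, the tissue kallikrein that releases kinins, was downregulated 2.85-fold in WT (adjusted p = 0.00219 from limma) and 2.23-fold in KO kidneys (0.00438). Kng1, which encodes the kinin precursor, was under background in all 6 control kidneys and was upregulated in KO kidneys by at least 2.12 on the log2 scale (adjusted p = 0.000824). Its fitted difference was 2.67, or 3.30 without KO AKI replicate 1. In WT kidneys its bound was 0.09 (adjusted p = 0.0269), a call lost without each WT array except WT control replicate 2 (up to 0.0913). Npr3, the clearance receptor of natriuretic peptides, was downregulated 4.38-fold in KO kidneys (adjusted p = 0.000207) and 2.03-fold in WT kidneys (0.0347, lost without replicate 2 or 3 of WT AKI or WT control, 0.0945 to 0.121). Cpm, a carboxypeptidase that trims kinins, was downregulated 2.96-fold in KO kidneys (0.00496), and its WT difference was -0.68 (0.207).

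Avpr2, the vasopressin receptor of the collecting duct, was above background on all 6 control arrays and 0 AKI arrays. It was called down in WT kidneys (adjusted p = 0.0113 from limma, or 0.0502 without WT AKI replicate 1), with a lower bound of 0.36 in log2 units, and in KO kidneys (0.000598), with a lower bound of 0.13. Ptgis, which makes prostacyclin, was upregulated in WT kidneys by at least 0.26 (0.00429). Nppb (brain natriuretic peptide) and Bdkrb2, a bradykinin receptor, were called up in both genotypes but were below background on every array.

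Adm encodes adrenomedullin, a vasodilator peptide, and is described here because its difference was seen to be the largest of that list. Its signals were 6.89, 7.27 and 7.22 on the WT control, 7.40, 6.87 and 7.93 on the WT AKI, 6.19, 7.19 and 7.27 on the KO control and 8.29, 10.51 and 12.56 on the KO AKI arrays. The 3 KO AKI arrays were above all 9 others, and they spread over more than 4 steps of log2. Adm was upregulated 11.9-fold in KO kidneys (log2 difference 3.57, SE 0.73, adjusted p = 0.00317 from limma), and its difference in WT kidneys was 0.28 (adjusted p = 0.835). The KO call held without each array in turn, at 4.65 without KO AKI replicate 1 and 2.51 without replicate 3. KO AKI against WT AKI gave 3.05 (adjusted p = 0.0728) and the interaction 3.29 (adjusted p = 0.322).

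Of 18 measured signalling genes behind the receptors, 3 were upregulated and 3 downregulated in WT kidneys, and 3 and 4 in KO kidneys, or 4 and 4 without KO AKI replicate 2. The medians were -0.01 and 0.30, and the KO median was 0.21 without that array. Plcb1, a phospholipase C that both receptor families use, was downregulated 2.32-fold in WT (adjusted p = 0.00895 from limma) and 3.09-fold in KO kidneys (0.000656), and Itpr2, a calcium channel opened by its product, 1.94-fold (0.00650) and 2.70-fold (0.000196). Tgfb1, a growth factor that angiotensin II induces, was upregulated 4.99-fold in KO kidneys (adjusted p = 0.000902) and 2.52-fold in WT kidneys (0.0391, lost without any 1 WT array or without KO control replicate 1 or 3, 0.0501 to 0.141). Rgs2, which turns off the G protein of these receptors, was upregulated 2.63-fold in WT kidneys (0.0316, lost without WT AKI replicate 2 or 3 or WT control replicate 1 or 3, up to 0.127) and 2.89-fold in KO kidneys (0.0110).

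Rgs5, a related regulator found in pericytes, was downregulated 2.66-fold in KO kidneys (adjusted p = 0.00569 from limma) and its WT difference was -0.38 (0.463). Ccn1, an early response gene, was upregulated 5.30-fold (adjusted p = 0.0392 from limma) in WT kidneys, a call lost without each WT array except WT control replicate 2 and without KO control replicate 3 (0.0537 to 0.146). In KO kidneys Ccn1 was upregulated 5.64-fold (adjusted p = 0.0190, or 0.0629 without KO AKI replicate 3 and 0.0913 without KO control replicate 1). Its control arrays ranged from 10.75 to 14.11, and its log2 difference was 3.31 without WT control replicate 2 in WT kidneys and 3.12 without KO control replicate 2 in KO kidneys, or 1.79 without KO control replicate 1. Arrb1, a beta-arrestin that takes up activated receptors, was downregulated in WT kidneys (log2 difference -0.68, adjusted p = 0.0376), a call lost without any 1 WT array (0.0612 to 0.113). In KO control against WT control, in KO AKI against WT AKI and in the interaction, 0 genes of the related pathway lists were called. Of the tubule markers, Slc12a3, the sodium chloride transporter of the distal tubule, was called lower in KO AKI than in WT AKI (adjusted p = 0.00309) and in the interaction (0.0414). With KO AKI replicate 2 left out, Slc34a1, Slc5a2 and Egf were also called lower in KO AKI than in WT AKI, and Slc5a2 in the interaction.

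**Figure D5:**
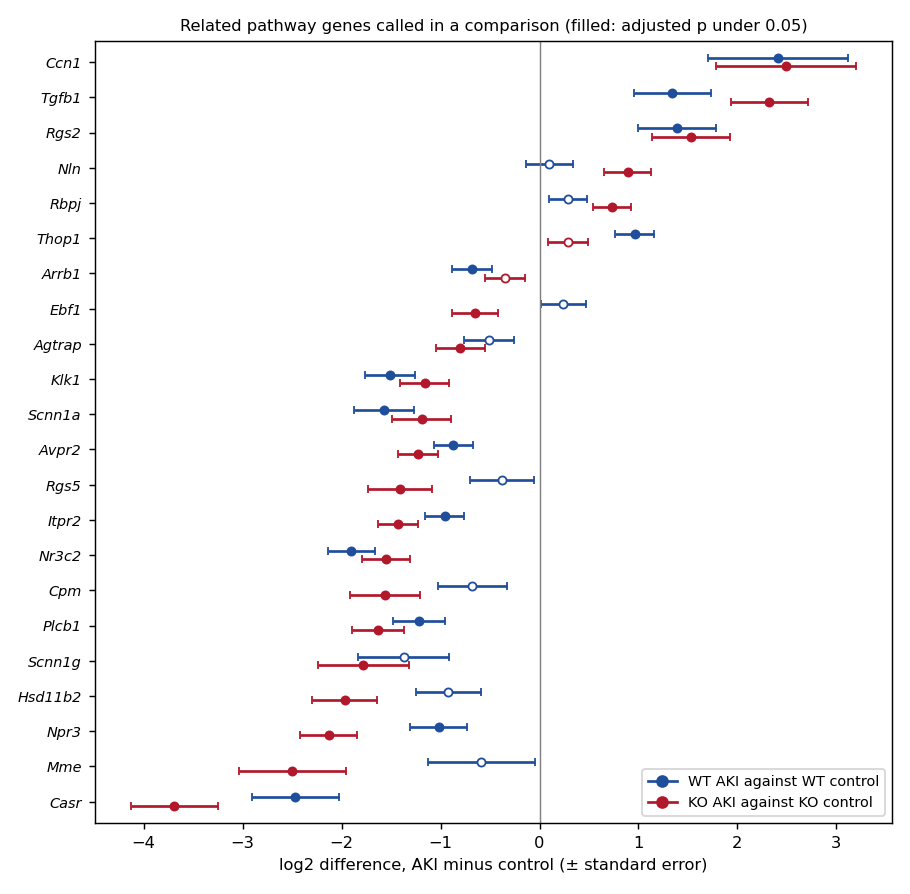
Log2 difference between AKI and control (x axis, bars: ± standard error) in WT (blue) and KO (red) kidneys for 22 genes of the related lists, with filled points where the adjusted p was under 0.05. They are the called genes picked by the rule for named genes that were above background on at least 6 of the 12 arrays. Called genes outside that rule, such as Adm, Nox4 and Creb1, are not drawn. Casr had the lowest differences in both genotypes, and Ccn1, Tgfb1 and Rgs2 rose in both.

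Across the 12 arrays each gene had others whose signals ran alongside, by Pearson correlation among 8874 genes above background on at least 6 arrays. The arrays share group and injury, so these are descriptions of the pattern. KO AKI replicate 2, with the lowest Ace and Agtr1a and the highest Ednrb signal, is included, and the correlations were not computed without it. Edn1 was above background on KO AKI replicates 1 and 2 only. Ace was most like Pdzk1 (r = 0.991), a scaffold protein of the proximal tubule brush border, followed by Pcyt2 (0.986) and Bphl (0.985). Agtr1a was most like Tcaim (0.988), Ganc (0.986) and Veph1 (0.984). Agt was most like Rps13 (0.987), a protein of the small ribosomal subunit, then Myo1c (0.978) and Xdh (0.976), the enzyme that makes uric acid. Edn1 was most like Fn1 (0.964), which encodes fibronectin, Cep95 (0.955) and Dstn (0.95), and Ednrb like Rmdn2 (0.964), Npc1 (0.916) and Tspan14 (0.905). Ece1 had Ppargc1b (0.931), a coactivator of mitochondrial genes, Armt1 (0.921) and Txnl4b (0.893).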

How the data were processed

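For every array the authors deposited log2 signals that summarise the probes of each probe set. The submitters' processing notes name Transcriptome Analysis Console without a version. The background correction and normalization are not given in the sources used here. The deposited log2 values were used as they stand. Because summarised array signals carry no read depth, the number of arrays limits the precision, and 3 arrays against 3 cannot reach an exact permutation p below 0.1.

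The table has 28846 entries. Of the 22206 that are not array controls, 2634 carry no gene symbol, 0 carry several and 19572 carry 1. For genes with several probe sets the one of highest mean signal was kept, so that 67 probe sets dropped out and 19505 genes were tested. Symbols are those of the platform annotation, which can be old.

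The comparisons used limma 3.58.1 under R 4.3.3 (lmFit and eBayes on 4 group means, 12 arrays, 8 residual and 5.6 prior degrees of freedom), with Benjamini-Hochberg adjustment over all 19505 genes and calls at an adjusted p under 0.05. The fit was also run on simulated data in which each gene had the same spread in all 4 groups. That run cannot show how the fit acts where the spreads differ. For Ace the SD was 1.59 in KO AKI and 0.05 in KO control kidneys. Where a gene was above background on no array of 1 group, its size is given as a bound against the mean background of that group. The p-values measure the spread between mice.

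The 8 genes, the related lists and the rule for named genes were chosen with earlier results of these data known. The rule named the 8 genes in every comparison (6 of them measured), up to 4 called members of each related list by smallest p, members called against the majority of their list, and the 3 genes most alike in pattern. Of 204 list genes, 180 had a probe set. The others are not reported here. Alternatives were each array left out, array weights, an intensity trend with a robust prior, median centring, quantile normalization, a filter on dim genes, all probe sets, only the groups compared, a replicate block, and calls at an unadjusted p under 0.01 and a fold over 2.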

Additional observations from a re-analysis of the deposited data

How the results depend on the processing

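Of 1539 values of single genes recomputed under an alternative, 1422 kept their side of the threshold, 106 no longer passed it, 11 newly passed it and 0 called values turned their direction, while 11 uncalled values changed sign. The count of the 6 genes called in WT kidneys after cisplatin was 2. It was 1 with genes above background on at least 3 arrays only (Edn1 is filtered out), 1 after quantile normalization, 4 with only the groups compared in the fit, and between 1 and 4 when each array was left out. The KO count was 5, and between 4 and 6 when each array was left out. Between KO AKI and WT AKI the count was 0, it was 1 for calls with an unadjusted p under 0.01 and a fold over 2, and between 0 and 2 when each array was left out (2 without KO AKI replicate 1). For the interaction it was 0 and between 0 and 1. Without KO AKI replicate 1, 1174 of all genes were called between KO AKI and WT AKI, against 95 in the main fit. For the interaction 337 were, against 6. The cause of these changes was not tested.

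With the replicate number as a block the WT count was 1 (Edn1 had an adjusted p of 0.0535 in limma), and the count of no other comparison changed under the block. The 18 pairs of arrays with the same number deviated from their group means with correlations of -0.114 to 0.088. With 3 arrays in a group, this cannot show whether arrays of the same number shared a litter or a batch. The labels give neither.

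Edn1 and Ece1 lie near background, which limits their size to a bound. Ren1 and Ednra were not analysed here, and the 3 mice of a group leave wide intervals.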
